A study of Homo sapiens with 12 samples.

Results

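Hepatocyte-like cells treated with 30 nM triiodothyronine (T3) were compared at day 19 of differentiation with control cells given 0.1% DMSO. The cells had been made from the H9 line of human embryonic stem cells, a widely used established line. The comparison rested on 4 of the 12 libraries of the series, 2 with T3 and 2 with DMSO. Of the others, 2 were of cells given 30 nM thyroxine (T4) and taken at day 19, which shared the fit and are set against T3 below, and 6 were of day 7, a stage labelled hepatoblasts, with the same treatments. The labels do not state when the hormone was added, for how long, or in what it was dissolved. Every group came from this 1 line. No label gives separate cultures for the 2 libraries of a group, so each p-value rests on the spread between these libraries alone.

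The comparison covers all genes, of which 17084 of the 23922 in the files passed a filter on low counts and were tested. Gene values are RSEM expected counts summed over the transcripts of a gene and given as CPM, counts scaled to a common library size by TMM, for replicate 1 and then replicate 2. A gene was called, or is said to have risen or fallen, at an adjusted p of at most 0.05 in edgeR's quasi-likelihood test, the source of each adjusted p below. The value after ± is the standard error of a log2 fold change. A summed level covers every member of a list or family that has values, tested or not. Totals were 18787232 and 18809083 expected counts with T3, against 19306181 and 19262099 with DMSO. The 10 most abundant genes took 6.94% and 6.93% of the counts with T3, against 11.7% and 12.1% with DMSO. T3 replicate 1 lay farther from the DMSO mean than T3 replicate 2 in 69.3% of the called genes. The strand used in counting is not given, so overlapping and antisense genes are not separated with certainty.

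The cells are labelled hepatocytes. With DMSO, AFP, the fetal plasma protein alpha-fetoprotein, stood at 29469 and 31611 CPM. SERPINA1, the plasma protease inhibitor alpha-1 antitrypsin, stood at 2825 and 3198 CPM. ALB, the albumin gene that defines the adult hepatocyte, had only 15.9 and 18.5 CPM. The DMSO libraries also held 2186 and 2085 CPM of COL1A1, a fibrillar collagen of mesenchymal cells, and 281 and 287 CPM of KRT7, a keratin of ducts and trophoblast. The RNA is from bulk cultures, in which fewer cells of a type and less RNA of a gene per cell cannot be told apart.

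Thyroid hormone crosses the cell membrane through transporters, is activated or inactivated by deiodinases, and binds nuclear receptors that sit on DNA with retinoid X receptors as partners. T4 is the main circulating form, and T3 binds the receptors more tightly. In adult liver the hormone is known for its effects on lipid, cholesterol and glucose metabolism. Genes of hepatocyte identity are driven by factors such as HNF4A.

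To show what lies before the starts of genes that moved together, the 250 bases upstream of each gene in the RefSeq promoter table (GRCh38.p14) were searched on both strands. The sets were drawn from called genes with a mean of at least 10 CPM with T3 or DMSO and groups that did not overlap. Of the 200 such genes with the smallest log2 fold change 149 were in the table, and of the 200 with the largest 138 were. The promoters of tested genes and all promoters, given beside them, carry no such filter, so the shares are of unlike sets. An alternative HNF4 motif, CAAAGTCCA, which reads TGGACTTTG on the other strand, occurred in 6 of the 149 promoters (4.03%). It occurred in none of the 138, in 0.257% of the 13212 promoters of tested genes and in 0.293% of all 27305 promoters. The direct repeat motif of HNF4 was found in neither set and in 0.0303% of the promoters of tested genes. The TATA box, TATAAA, occurred in 12.8% of the 149 and 17.4% of the 138, against 6.27% of the promoters of tested genes and 11.1% of all promoters. The exact direct repeat of the thyroid hormone response element with a spacer of 4 bases was found in neither set and in 0.0146% of all promoters. With 1 base of each repeat left free it was found in none of the 149 and in 1 of the 138 (0.725%), that of FHL2, against 0.0984% of the promoters of tested genes. These are matches of letters and not measured binding, and nothing about a factor follows from them. The stretches around 3 of the matches to the alternative HNF4 motif are printed 5′ to 3′ on the strand of the gene with the match in capitals. They were chosen after the values were seen, from genes that fell.
AHSG (chr3:186612856-186612914, plus strand, match starting 179 bases before the gene start): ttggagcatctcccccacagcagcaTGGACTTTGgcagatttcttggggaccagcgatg
LEAP2 (chr5:132873453-132873511, plus strand, 190 bases before the start): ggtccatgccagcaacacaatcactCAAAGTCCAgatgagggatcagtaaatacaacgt
PROZ (chr13:113158589-113158647, plus strand, 34 bases before the start): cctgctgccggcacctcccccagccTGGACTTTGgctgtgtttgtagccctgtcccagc
LEAP2, a liver peptide that blocks the ghrelin receptor, had 3.34 and 3.47 CPM in the T3 libraries, against 87.4 and 89.3 CPM in the DMSO libraries. PROZ, a vitamin K-dependent plasma protein, had 1.67 and 2.84 CPM in the T3 libraries, against 19.1 and 18.9 CPM in the DMSO libraries. In both genes, and in AHSG below, both T3 libraries lay below both DMSO libraries, which the choice of the 200 genes required.

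T3 was accompanied by a broad shift of the transcriptome. Of the 17084 genes 8255 (48.3%) were called, 4101 higher with T3 (24.0%) and 4154 lower (24.3%), and the median log2 fold change of all tested genes was -0.00468. Every count of list members for T3 against DMSO at day 19 is to be read against these 24.0% and 24.3%. The split was less even with limma on the authors' FPKM: log2(FPKM + 0.1) gave 4503 higher and 3267 lower, and log2(FPKM + 1) gave 4512 higher and 3323 lower. Calls of at least 2-fold numbered 2859 (16.7%), of which 1188 were higher and 1671 lower. Large changes were mostly losses: 92 genes rose and 237 fell by 8-fold or more, and 12 rose and 46 fell by 32-fold or more. Of the protein-coding genes 7759 of 14997 (51.7%) were called, against 343 of 1501 long noncoding RNA genes (22.9%), whose median level was 1.47 CPM, against 22.8 CPM.

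**Figure D1:**
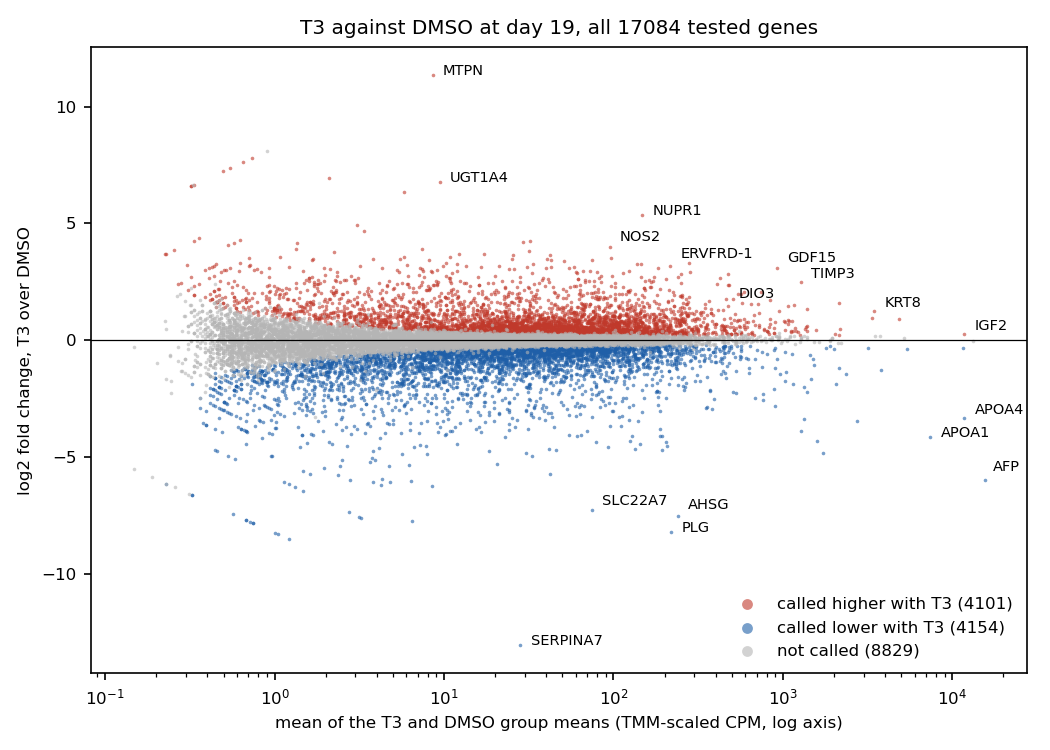
Log2 fold change of T3 over DMSO (vertical axis) against the mean of the T3 and DMSO group means in CPM (horizontal log axis) for the 17084 tested genes, with 4101 called higher in red, 4154 called lower in blue and the rest in grey. AFP, APOA1 and APOA4 lie far below 0 at high level, and NUPR1 lies highest among the genes that average at least 100 CPM with T3.

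**Figure D2:**
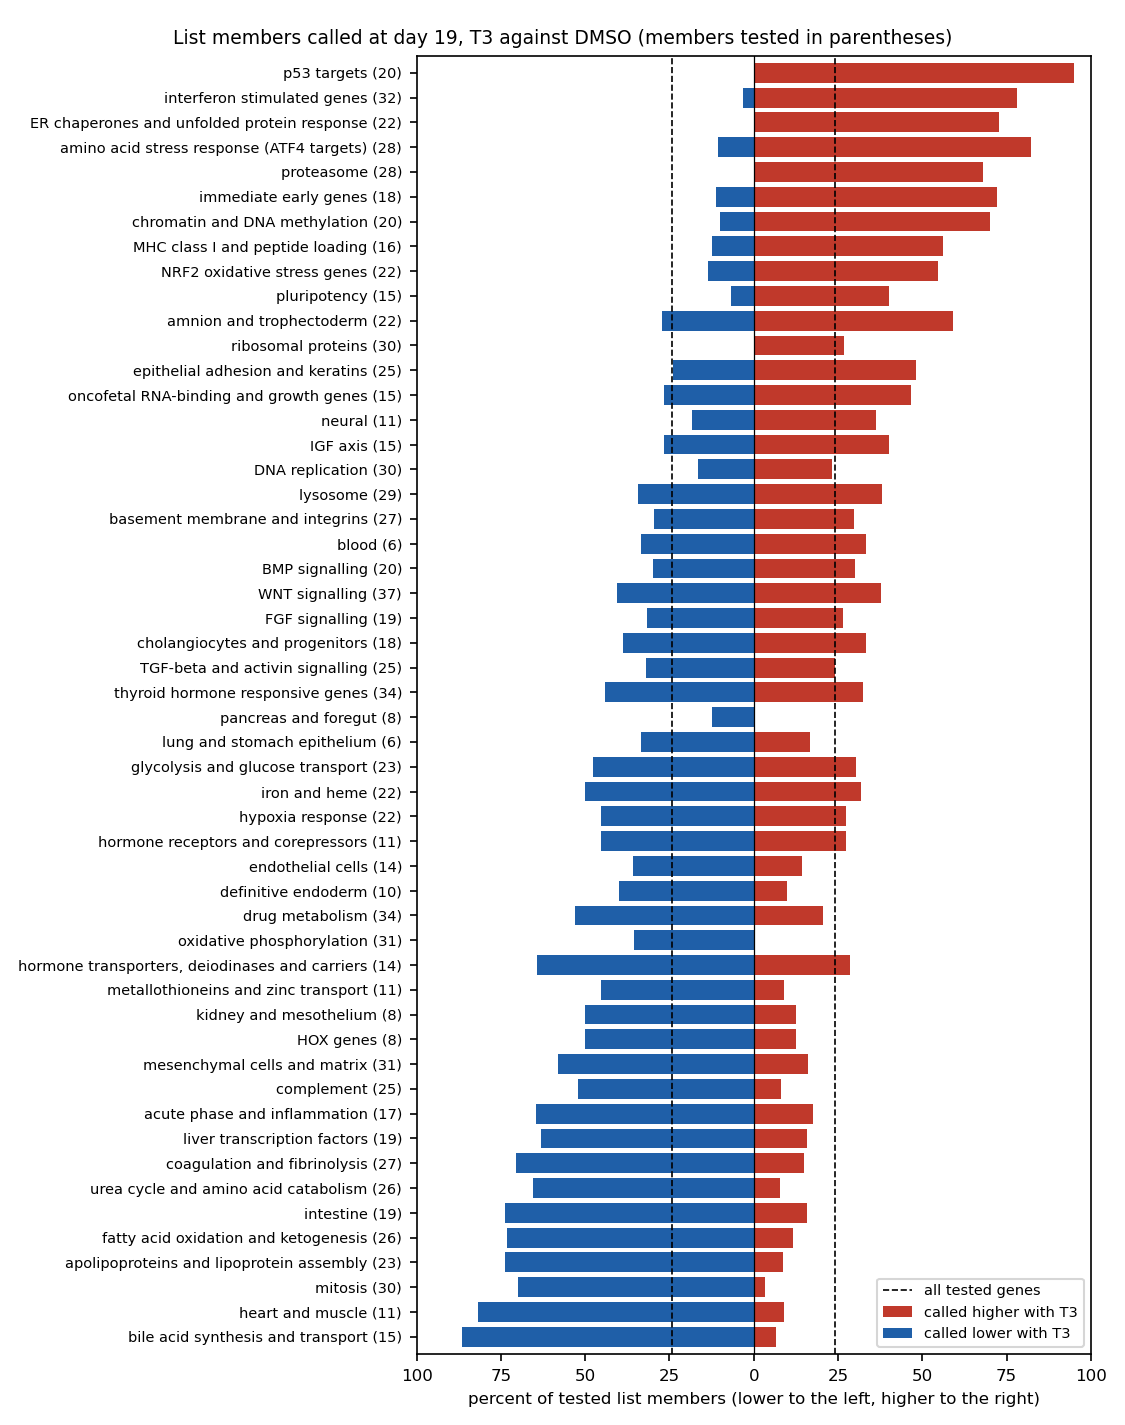
Percent of the tested members of 52 gene lists that were called higher (red, to the right) or lower (blue, to the left) with T3, with the number tested in parentheses. Dashed lines mark all tested genes, 24.0% higher and 24.3% lower; the p53, ATF4 and interferon lists extend farthest to the right, and the bile acid list farthest to the left.

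The deepest losses were of plasma proteins, organic anion transporters and liver enzymes. SERPINA7, thyroxine-binding globulin, had no count with T3 and 55.1 and 57.6 CPM with DMSO, at least 705-fold lower with T3 when 3 counts are allowed over the group. PLG, plasminogen, had 1.02 and 1.84 CPM in the T3 libraries, against 418 and 453 CPM in the DMSO libraries (log2 fold change -8.24 ± 0.16, adjusted p = 2.09e-09). AHSG, the plasma glycoprotein fetuin-A, had 1.83 and 3.32 CPM in the T3 libraries, against 442 and 508 CPM in the DMSO libraries (log2 fold change -7.52 ± 0.18, adjusted p = 5.17e-09). All 3 were nearly absent with T3. SLC22A7, an organic anion transporter of the hepatocyte membrane, had 0.969 and 0.948 CPM in the T3 libraries, against 147 and 149 CPM in the DMSO libraries (log2 fold change -7.26 ± 0.12, adjusted p = 7.77e-10). SLC22A6, a related transporter, had 2 counts over the T3 libraries and 474 over the DMSO libraries, a DMSO to T3 ratio of 241 with an exact interval of 66.4 to 1997 for counting error only.

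Next in order were UGT2A3, a glucuronosyltransferase, PON1, the lipoprotein-bound paraoxonase, AFP, SERPIND1, the thrombin inhibitor heparin cofactor II, SI, a disaccharidase of the gut, G0S2, an inhibitor of triglyceride lipase, and PHGR1, an epithelial protein of the gut. UGT2A3 had 0.269 and 0.158 CPM in the T3 libraries, against 17.1 and 16.6 CPM in the DMSO libraries. SERPIND1 had 1.08 and 2.0005 CPM in the T3 libraries, against 82.2 and 84.1 CPM in the DMSO libraries. G0S2 had 0.915 and 1.11 CPM in the T3 libraries, against 37.4 and 42.9 CPM in the DMSO libraries. Each lay below 3 CPM with T3, far from the DMSO libraries. The log2 fold changes of PON1, SI and PHGR1 were -6.03 ± 0.34, -5.34 ± 0.28 and -4.98 ± 0.15.

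By reads, the loss was concentrated in a few secreted proteins. AFP took 0.0382% and 0.0586% of all counts with T3, against 2.82% and 3.03% with DMSO (log2 fold change -5.98 ± 0.21, adjusted p = 3.63e-08). The complement, coagulation and apolipoprotein lists together took 1.004% and 1.28% with T3, against 5.79% and 6.10% with DMSO. APOA4, an apolipoprotein of gut and fetal liver, had 1950.4 and 2309.8 CPM in the T3 libraries, against 20604 and 22056 CPM in the DMSO libraries. APOC3, an inhibitor of lipoprotein lipase, had 89.6 and 139 CPM in the T3 libraries, against 3066 and 3559 CPM in the DMSO libraries. APOE, the ligand of lipoprotein receptors, changed least of the apolipoproteins among the 8 largest losses, with 2058 and 2396 CPM in the T3 libraries, against 5136 and 5513 CPM in the DMSO libraries. EEF1A1, a translation elongation factor, was also among those 8 (log2 fold change -0.33 ± 0.08, adjusted p = 0.00827), but its adjusted p was 0.0741 without DMSO replicate 2.

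Within the plasma protein groups the depth of loss varied. Of 27 coagulation and fibrinolysis genes 19 fell and 4 rose, with a median log2 fold change of -1.64. F7, which starts clotting with tissue factor, F10, which makes thrombin, and PROS1, the anticoagulant protein S, had log2 fold changes of -3.09 ± 0.18, -2.30 ± 0.13 and -1.56 ± 0.09. Of 25 complement genes 13 fell and 2 rose (median -0.97). C6 and C5 of the membrane attack pathway and the central component C3 had log2 fold changes of -3.96 ± 0.20, -2.96 ± 0.15 and -2.62 ± 0.10. Of 23 apolipoprotein and lipoprotein assembly genes 17 fell and 2 rose (median -1.90). Of 17 acute phase genes 11 fell and 3 rose (median -0.84, or -1.43 without T3 replicate 2). CD55, a membrane protein that protects cells from complement, was an exception with 129.7 and 119 CPM in the T3 libraries, against 35.3 and 32.2 CPM in the DMSO libraries (log2 fold change 1.88 ± 0.08, adjusted p = 1.19e-07).

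Liver metabolism genes moved mostly downward. Of 15 genes of bile acid synthesis and transport 13 fell and 1 rose (median -1.30). SLC51A, a subunit of a bile acid exporter, had a log2 fold change of -3.12 ± 0.16. AKR1D1, a reductase of bile acid synthesis, had 6.73 and 9.48 CPM in the T3 libraries, against 52.96 and 56.8 CPM in the DMSO libraries. ABCC2, the canalicular export pump, and KLB and FGFR4, the receptor pair for the gut hormone FGF19, had log2 fold changes of -2.10 ± 0.11, -1.92 ± 0.16 and -1.99 ± 0.09. Synthesis, export and hormone reception were thus all represented among the genes that fell.

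Of 26 genes of fatty acid oxidation and ketogenesis 19 fell and 3 rose (median -0.69). ACOX2, a peroxisomal oxidase, had 2.80 and 3.11 CPM in the T3 libraries, against 22.1 and 26.7 CPM in the DMSO libraries. PPARA, the nuclear receptor that activates many genes of this list, had 54.2 and 52.6 CPM in the T3 libraries, against 194 and 160.5 CPM in the DMSO libraries (log2 fold change -1.73 ± 0.11, adjusted p = 1.18e-06). CPT1A, which admits fatty acids to mitochondria, went the other way with 82.8 and 89.97 CPM in the T3 libraries, against 54.5 and 50.7 CPM in the DMSO libraries (log2 fold change 0.72 ± 0.08, adjusted p = 4.60e-05). Of 23 genes of glycolysis and glucose transport 11 fell and 7 rose. SLC2A2, the glucose transporter GLUT2 of liver, had a log2 fold change of -3.48 ± 0.18, while PFKP, a phosphofructokinase of many tissues, had 0.95 ± 0.08.

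Of 26 urea cycle and amino acid genes 17 fell and 2 rose (median -1.35). MAT1A, the liver form of the enzyme that makes S-adenosylmethionine, had 17.4 and 25.4 CPM in the T3 libraries, against 232 and 222 CPM in the DMSO libraries, and GLUD1, glutamate dehydrogenase, and ASS1 of the urea cycle had log2 fold changes of -2.20 ± 0.10 and -2.08 ± 0.09. Of 34 drug metabolism genes 18 fell and 7 rose (median -0.60, or -0.29 without T3 replicate 1 and -1.04 without T3 replicate 2). ADH4, an alcohol dehydrogenase, had 0.861 and 0.842 CPM in the T3 libraries, against 7.16 and 8.66 CPM in the DMSO libraries. CYP2J2, an epoxygenase of arachidonic acid, rose with 18.8 and 18.9 CPM in the T3 libraries, against 5.58 and 4.87 CPM in the DMSO libraries. UGT1A1, the bilirubin glucuronosyltransferase, rose with 61.3 and 79.7 CPM in the T3 libraries, against 12.8 and 12.2 CPM in the DMSO libraries (log2 fold change 2.49 ± 0.13, adjusted p = 3.28e-07). The UGT1A genes differ in their first exon and share the rest, so the counting divided shared reads among them. Looked up as a family after their values were seen, all 5 tested UGT1A genes rose. The summed level of the family was 109 and 147 CPM with T3, against 16.2 and 15.4 CPM with DMSO.

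Liver transcription factors were mostly lower. Of 19 tested 12 fell and 3 rose, with a median log2 fold change of -0.66. HNF4A had 48.5 and 59.9 CPM in the T3 libraries, against 216 and 200.1 CPM in the DMSO libraries (log2 fold change -1.94 ± 0.12, adjusted p = 6.80e-07). FOXA3, a pioneer factor of liver genes, and CREB3L3, an activator of apolipoprotein genes, had log2 fold changes of -1.61 ± 0.10 and -1.45 ± 0.09. CEBPB, a factor of acute phase and stress responses, rose with 481 and 389.7 CPM in the T3 libraries, against 122 and 117 CPM in the DMSO libraries. TBX3, a repressor active in hepatoblasts, rose with 408 and 321 CPM in the T3 libraries, against 92.5 and 81.996 CPM in the DMSO libraries. The 6 HNF4A transcripts tested did not pass for a changed share of the gene.

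Genes of hormone transport and conversion changed both ways: of 14 tested 9 fell, 4 rose and 1 did not pass. DIO3, the deiodinase that inactivates T3 and T4, had 885 and 714 CPM in the T3 libraries, against 170.2 and 142 CPM in the DMSO libraries (log2 fold change 2.36 ± 0.12, adjusted p = 2.78e-07). DIO1, the deiodinase of adult liver, had 21.6 and 33.3 CPM in the T3 libraries, against 64.2 and 68.6 CPM in the DMSO libraries (log2 fold change -1.27 ± 0.16, adjusted p = 9.10e-05). The activating deiodinase DIO2 had 1.02 and 0.526 CPM in the T3 libraries, against 2.60 and 2.27 CPM in the DMSO libraries (log2 fold change -1.65 ± 0.34, adjusted p = 0.00258). DIO3 was thus higher and the other deiodinases lower with T3.

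Hormone transporters changed both ways. SLC16A10, an aromatic amino acid transporter that also carries the hormone, had 2.85 and 2.47 CPM in the T3 libraries, against 11.6 and 9.42 CPM in the DMSO libraries (log2 fold change -1.98 ± 0.18, adjusted p = 9.49e-06). SLC17A4, another hormone transporter, had 2.42 and 3.05 CPM in the T3 libraries, against 8.89 and 10.8 CPM in the DMSO libraries (log2 fold change -1.84 ± 0.19, adjusted p = 2.48e-05). SLC7A8, an amino acid transporter that also accepts the hormone, rose with 885 and 694 CPM in the T3 libraries, against 159.5 and 148 CPM in the DMSO libraries. SLC7A5, a related transporter, and SLC3A2, the heavy chain both share, had log2 fold changes of 0.78 ± 0.09 and 1.09 ± 0.08. TTR, the plasma carrier transthyretin, and CRYM, a cytosolic T3-binding protein, fell with log2 fold changes of -3.38 ± 0.16 and -0.82 ± 0.17.

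Both receptor genes were lower with T3. THRA, which overlaps NR1D1 at its end, had 17.1 and 16.8 CPM in the T3 libraries, against 34.6 and 25.98 CPM in the DMSO libraries (log2 fold change -0.84 ± 0.14, adjusted p = 0.000602). THRB had 60.2 and 59.4 CPM in the T3 libraries, against 85.5 and 70.6 CPM in the DMSO libraries (log2 fold change -0.39 ± 0.09, adjusted p = 0.00711), with an adjusted p of 0.0674 without DMSO replicate 1. Among 11 tested receptors and coregulators 5 fell and 3 rose. NCOA3, a coactivator, had 448 and 341 CPM in the T3 libraries, against 118 and 94.2 CPM in the DMSO libraries (log2 fold change 1.89 ± 0.15, adjusted p = 4.06e-06), while the coactivator NCOA1 had a log2 fold change of -0.72 ± 0.09.

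Of 34 genes listed as thyroid hormone responsive 11 rose and 15 fell (median -0.21, or -0.32 without DMSO replicate 2). KLF9, a transcription factor gene known as a direct target, had 55.02 and 61.96 CPM in the T3 libraries, against 34.2 and 33.4 CPM in the DMSO libraries (log2 fold change 0.79 ± 0.11, adjusted p = 0.000182). HR, a corepressor gene known as a target in brain and skin, had 10.9 and 10.1 CPM in the T3 libraries, against 13.4 and 13.4 CPM in the DMSO libraries and did not pass (log2 fold change -0.35 ± 0.14, adjusted p = 0.0563). THRSP, a lipogenic gene named for its response in rat liver, had at most 0.325 CPM in these libraries and was not tested. Of these 3 genes KLF9 was thus called, and by less than 2-fold. SLC16A6, a transporter of ketone bodies, had 31.9 and 27.1 CPM in the T3 libraries, against 3.52 and 3.25 CPM in the DMSO libraries (log2 fold change 3.12 ± 0.14, adjusted p = 1.08e-07), and ANGPTL4, a secreted lipase inhibitor, had a log2 fold change of 1.47 ± 0.08. NRGN, neurogranin, PCK1, which commits carbon to glucose synthesis, and SHBG, the sex hormone carrier, fell with log2 fold changes of -3.45 ± 0.17, -1.51 ± 0.12 and -1.42 ± 0.19.

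**Figure D3:**
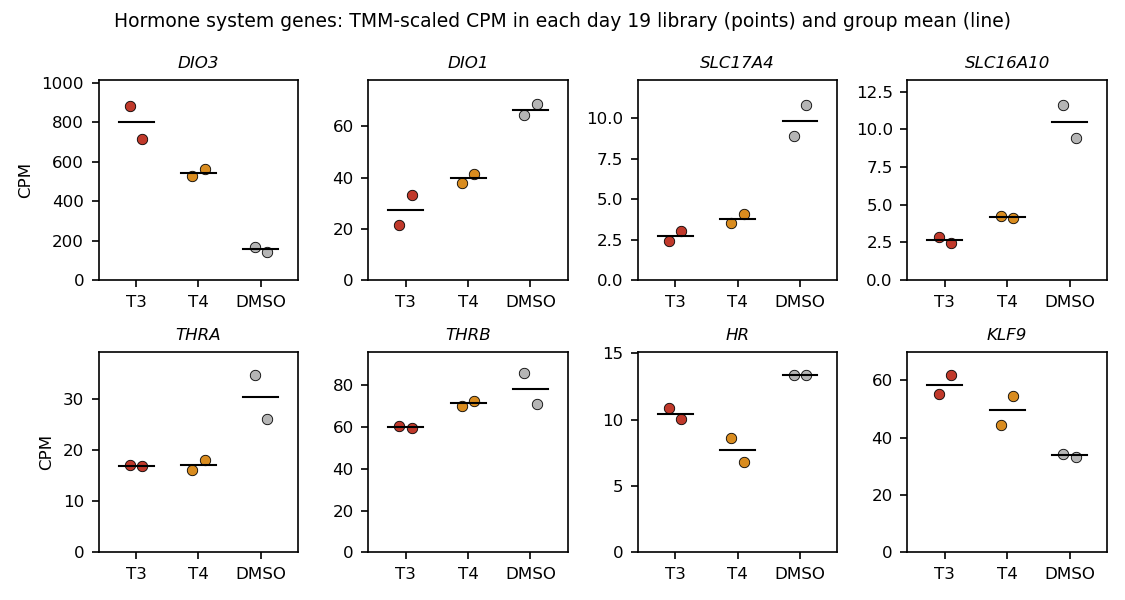
CPM of 8 genes of hormone transport, conversion, reception and response in the T3, T4 and DMSO libraries at day 19, with a point for each library and a line for the mean of 2. DIO3 and KLF9 were higher and DIO1, SLC17A4, SLC16A10 and THRA lower with T3 than with DMSO, and HR did not pass the test.

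Stress response genes were among those most often called higher. Of 28 targets of ATF4, the transcription factor of amino acid shortage, 23 rose and 3 fell, with a median log2 fold change of 1.09 and a summed level of 7218 and 6474 CPM with T3, against 2705 and 2698 CPM with DMSO. NUPR1, a small stress-induced chromatin protein (chr16:28532708-28538974), had 289 and 288 CPM in the T3 libraries, against 6.56 and 7.31 CPM in the DMSO libraries (log2 fold change 5.38 ± 0.10, adjusted p = 2.09e-09). GDF15, a secreted stress hormone (chr19:18386158-18389176), had 1737 and 1558 CPM in the T3 libraries, against 185 and 204 CPM in the DMSO libraries (log2 fold change 3.08 ± 0.10, adjusted p = 3.00e-08). STC2, stanniocalcin 2, and PSAT1, an enzyme of serine synthesis, had log2 fold changes of 1.496 ± 0.08 and 1.83 ± 0.10. The pairs of libraries were close to each other and far apart between groups.

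Of 22 genes of endoplasmic reticulum chaperones and the unfolded protein response 16 rose and the other 6 did not pass (median 0.46). HERPUD1, which helps remove misfolded proteins, had 412 and 379 CPM in the T3 libraries, against 109 and 108 CPM in the DMSO libraries. The chaperone HSPA5 and the transcription factor XBP1 had log2 fold changes of 0.92 ± 0.09 and 0.86 ± 0.08. Of 20 p53 targets 19 rose and 1 did not pass (median 0.72). CDKN1A, the cell cycle inhibitor p21, had 1349 and 1322 CPM in the T3 libraries, against 545 and 580.4 CPM in the DMSO libraries (log2 fold change 1.25 ± 0.08, adjusted p = 1.22e-06). MDM2, which degrades p53, and BBC3, which promotes apoptosis, had log2 fold changes of 1.18 ± 0.09 and 1.12 ± 0.09. GDF15 is in both the ATF4 and the p53 list.

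Of 22 NRF2 genes 12 rose and 3 fell (median 0.62). HMOX1, heme oxygenase, had 426 and 374 CPM in the T3 libraries, against 105 and 107 CPM in the DMSO libraries, and SRXN1 and TXNRD1, which reduce oxidized thiols, had log2 fold changes of 1.38 ± 0.08 and 1.12 ± 0.07. Of 18 immediate early genes 13 rose and 2 fell (median 0.92). KLF4, a factor of epithelial barriers, had 132 and 99.2 CPM in the T3 libraries, against 21.9 and 17.4 CPM in the DMSO libraries, and the AP-1 subunit FOSL1 and the stress factor ATF3 had log2 fold changes of 2.55 ± 0.14 and 1.43 ± 0.10. Of 28 proteasome subunit genes 19 rose and 9 did not pass, with small changes (median 0.28). NOS2, the inducible nitric oxide synthase, had 209 and 149 CPM in the T3 libraries, against 12.3 and 10.2 CPM in the DMSO libraries (log2 fold change 3.99 ± 0.17, adjusted p = 8.52e-08). CHI3L1, a chitinase-like protein of inflammation, had 52.1 and 69.5 CPM in the T3 libraries, against 3.25 and 3.08 CPM in the DMSO libraries (log2 fold change 4.26 ± 0.17, adjusted p = 6.91e-08).

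Interferon stimulated genes rose as a group. Of 32 tested 25 rose and 1 fell, with a median log2 fold change of 1.25, or 0.81 without T3 replicate 2. MX1, an antiviral GTPase, had 61.1 and 84.9 CPM in the T3 libraries, against 16.4 and 14.1 CPM in the DMSO libraries (log2 fold change 2.26 ± 0.15, adjusted p = 1.34e-06). IFI6, a mitochondrial protein of this response, had 255 and 296 CPM in the T3 libraries, against 95.1 and 93.1 CPM in the DMSO libraries. IRF7 and IRF1, transcription factors of the response, had log2 fold changes of 1.91 ± 0.10 and 1.11 ± 0.09. T3 replicate 2 was the higher T3 library for each of these 4 genes. Among all genes called higher, T3 replicate 1 lay farther from the DMSO mean in 69.9%.

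In antigen presentation by MHC class I, 9 of 16 genes rose and 2 fell. TAP1, a subunit of the peptide transporter, had 119 and 128 CPM in the T3 libraries, against 36.05 and 36.2 CPM in the DMSO libraries (log2 fold change 1.78 ± 0.08, adjusted p = 1.12e-07). TAP2, the immunoproteasome subunits PSMB8 and PSMB9, and NLRC5, the activator of class I genes, had log2 fold changes of 1.65 ± 0.10, 1.25 ± 0.14, 1.37 ± 0.16 and 2.06 ± 0.39. The class I genes HLA-C, which did not pass, and HLA-E, which fell, had log2 fold changes of 0.19 ± 0.09 and -0.39 ± 0.08. Peptide loading genes were thus raised more than the class I chains named here.

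Genes known from the placenta were present with DMSO and mostly higher with T3. Of 22 amnion and trophectoderm genes 13 rose and 6 fell (median 0.92), with a summed level of 7123 and 6480 CPM with T3, against 3293 and 3116 CPM with DMSO. ERVFRD-1, the cell fusion protein syncytin-2 (chr6:11102489-11111725), had 437 and 338 CPM in the T3 libraries, against 47.3 and 38.8 CPM in the DMSO libraries (log2 fold change 3.17 ± 0.14, adjusted p = 1.12e-07). CGA, the alpha subunit of chorionic gonadotropin, had 1296 and 1086 CPM in the T3 libraries, against 281 and 288 CPM in the DMSO libraries (log2 fold change 2.07 ± 0.10, adjusted p = 1.50e-07). GATA3, a trophectoderm factor, had 948 and 781 CPM in the T3 libraries, against 235 and 202 CPM in the DMSO libraries (log2 fold change 1.99 ± 0.11, adjusted p = 4.32e-07). ERVW-1, or syncytin-1, and CGB5, a chorionic gonadotropin beta subunit, had log2 fold changes of 2.50 ± 0.11 and 1.97 ± 0.08. GABRP, an amnion marker, fell with 111 and 124 CPM in the T3 libraries, against 436 and 399.9 CPM in the DMSO libraries (log2 fold change -1.83 ± 0.09, adjusted p = 1.56e-07). No gene of the list was at 0 in both groups.

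Further placental genes were looked up after their values were seen. GCM1, which drives fusion of trophoblast cells, had 54.4 and 43.7 CPM in the T3 libraries, against 8.13 and 6.77 CPM in the DMSO libraries (log2 fold change 2.72 ± 0.14, adjusted p = 2.30e-07). CYP19A1, the aromatase that makes estrogens, had 450.4 and 386 CPM in the T3 libraries, against 66.5 and 59.8 CPM in the DMSO libraries (log2 fold change 2.73 ± 0.10, adjusted p = 5.31e-08). HSD3B1, an enzyme of progesterone synthesis, had 298 and 252 CPM in the T3 libraries, against 58.8 and 53.4 CPM in the DMSO libraries (log2 fold change 2.29 ± 0.10, adjusted p = 1.14e-07). The groups did not overlap in these genes, which is no further support, as they were chosen after their values were seen. CYP11A1, which starts steroid synthesis, HSD17B1, which makes estradiol, HSD11B2, which inactivates cortisol, and PGF, placental growth factor, had log2 fold changes of 2.56 ± 0.12, 2.92 ± 0.13, 3.13 ± 0.10 and 2.40 ± 0.12. CSH1, placental lactogen, had at most 0.579 CPM in these libraries and was not tested. The CGB genes are near-identical copies whose separate values are uncertain. The summed level of these genes, tested or not, was 539 and 494 CPM with T3, against 123 and 139 CPM with DMSO. The part of placenta-like cells in the other results was not tested.

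**Figure D4:**
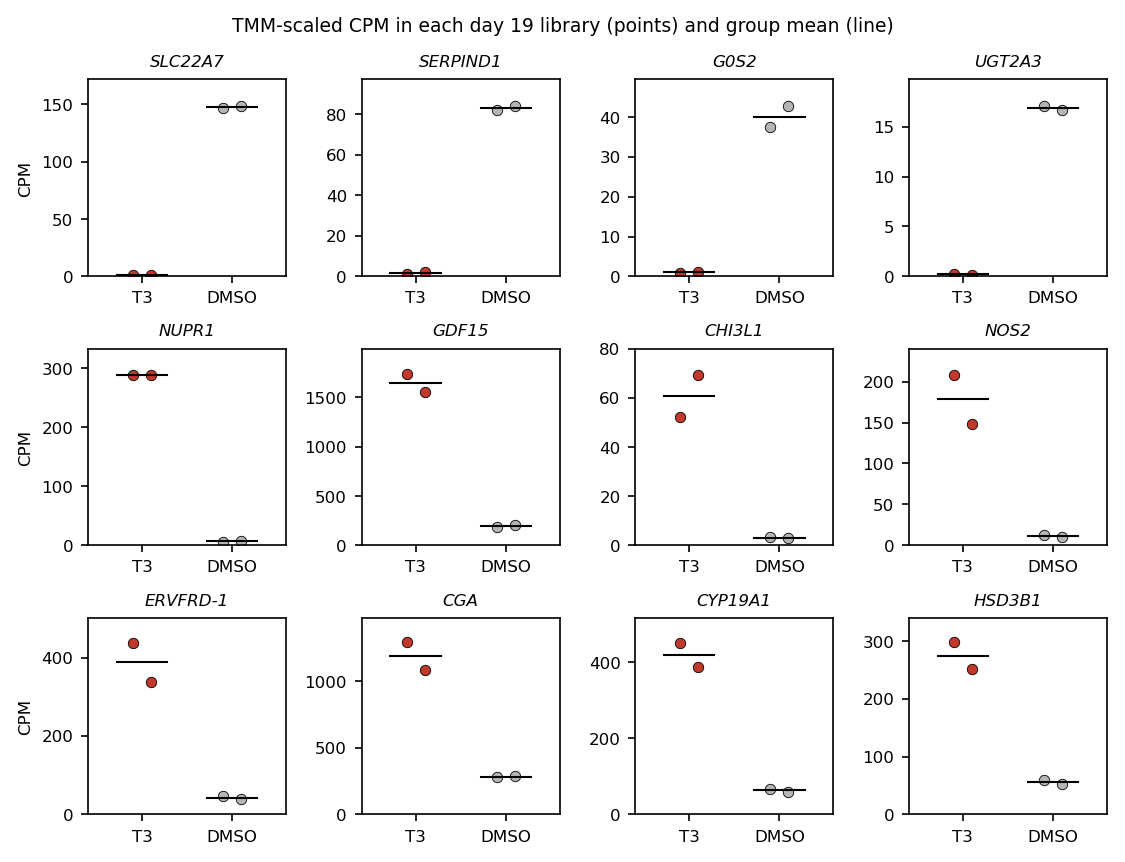
CPM of 12 genes in the T3 libraries and the DMSO libraries at day 19, with a point for each library and a line for the mean of 2. The top row shows liver genes that were lower with T3, the middle row stress and inflammation genes and the bottom row placental genes that were higher. Genes named by fold were chosen to have groups that do not overlap.

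Markers of several other cell types were lower. Of 19 intestinal genes 14 fell and 3 rose (median -2.24). Their summed level was 3208 and 3817 CPM with T3, against 29031 and 29084 CPM with DMSO, most of it from APOA4 and APOB, which fetal liver also makes. VIL1, the microvillus protein villin, had 28.2 and 34.2 CPM in the T3 libraries, against 269.5 and 259 CPM in the DMSO libraries, and CDH17, liver-intestine cadherin, had a log2 fold change of -0.77 ± 0.11. Of 31 mesenchymal and matrix genes 18 fell and 5 rose (median -0.70), with a summed level of 19110.1 and 19345 CPM with T3, against 27960.5 and 25019 CPM with DMSO. COL1A1 had 482 and 589 CPM in the T3 libraries, against 2186 and 2085 CPM in the DMSO libraries (log2 fold change -1.996 ± 0.10, adjusted p = 2.54e-07), and LOX, which cross-links collagen, and COL6A3 had log2 fold changes of -3.25 ± 0.19 and -1.76 ± 0.11. TIMP3, an inhibitor of matrix proteases in an intron of SYN3, rose with 2331 and 1976 CPM in the T3 libraries, against 407 and 368 CPM in the DMSO libraries (log2 fold change 2.47 ± 0.11, adjusted p = 9.73e-08). Of 11 heart and muscle genes 9 fell, 1 rose and 1 did not pass, with cardiac actin ACTC1 at a log2 fold change of -0.87 ± 0.08. Their summed level was 159 and 201 CPM with T3, against 321 and 329 CPM with DMSO. The part of these cell types in the other results was not tested.

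Of 14 endothelial genes 5 fell and 2 rose, and their summed level was 611 and 601 CPM with T3, against 236 and 229 CPM with DMSO. ENG alone made up most of the sum with T3. The endothelial markers PECAM1 and TEK had log2 fold changes of -1.61 ± 0.19 and -2.11 ± 0.27. ENG, a TGF-beta co-receptor that trophoblast also makes, rose with 451 and 431 CPM in the T3 libraries, against 61.96 and 62.8 CPM in the DMSO libraries (log2 fold change 2.82 ± 0.08, adjusted p = 1.12e-08), and CDH5, VE-cadherin, with a log2 fold change of 1.71 ± 0.14. Of 18 cholangiocyte and progenitor genes 7 fell (38.9%) and 6 rose (33.3%), against 24.3% and 24.0% of all genes. SPP1, the secreted phosphoprotein osteopontin, had 717 and 745 CPM in the T3 libraries, against 111 and 119 CPM in the DMSO libraries (log2 fold change 2.67 ± 0.09, adjusted p = 3.00e-08), and GGT1, a membrane peptidase, had a log2 fold change of -1.16 ± 0.12. Of 11 neural genes 4 rose and 2 fell, and NEUROD1, NEUROG1 and NEUROG2 had no count in either group. The macrophage genes CD68 and CSF1R, the second of them also a trophoblast gene, had log2 fold changes of -1.76 ± 0.08 and 1.91 ± 0.10.

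Genes of epithelial structure changed both ways. Of 25 genes of keratins and epithelial adhesion 12 rose and 6 fell. KRT8, a keratin of simple epithelia, had 5143 and 4625 CPM in the T3 libraries, against 2011 and 2069.8 CPM in the DMSO libraries (log2 fold change 1.26 ± 0.09, adjusted p = 2.21e-06). Its partner KRT18, an overlapping gene, had 3358 and 3069 CPM in the T3 libraries, against 1023 and 1090.3 CPM in the DMSO libraries, and both were among the 8 largest gains in CPM. KRT23 and KRT17, keratins of stressed or injured epithelium, had log2 fold changes of 3.29 ± 0.11 and 3.65 ± 0.19. CLDN1, a tight junction protein of hepatocytes, fell with 11.8 and 12.7 CPM in the T3 libraries, against 92.9 and 94.4 CPM in the DMSO libraries (log2 fold change -2.93 ± 0.13, adjusted p = 1.01e-07). Of 27 basement membrane and integrin genes 8 rose (29.6%) and 8 fell (29.6%), near the 24.0% and 24.3% of all genes. LAMB3, a laminin chain, and ITGB4, an integrin subunit that binds laminin, went opposite ways with log2 fold changes of -4.45 ± 0.10 and 2.06 ± 0.14.

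Iron genes changed both ways: of 22 tested 11 fell and 7 rose. HPX, the plasma heme carrier hemopexin, had 17.6 and 23.3 CPM in the T3 libraries, against 357 and 356 CPM in the DMSO libraries, and TMPRSS6, a protease that lowers hepcidin, had a log2 fold change of -4.06 ± 0.14. FTH1, ferritin heavy chain, rose with 6568 and 6102 CPM in the T3 libraries, against 3165 and 3629.5 CPM in the DMSO libraries (log2 fold change 0.90 ± 0.10, adjusted p = 3.87e-05), while FTL, ferritin light chain, named after its values were seen, fell with 4599 and 4755 CPM in the T3 libraries, against 5814 and 6455 CPM in the DMSO libraries (log2 fold change -0.39 ± 0.08, adjusted p = 0.00351). TFRC, the transferrin receptor, and SLC40A1, the iron exporter ferroportin, rose with log2 fold changes of 1.48 ± 0.10 and 1.77 ± 0.11. Of 29 lysosome genes 11 rose (37.9%) and 10 fell (34.5%), against 24.0% and 24.3% of all genes. LIPA, the lysosomal acid lipase, had 23.7 and 25.7 CPM in the T3 libraries, against 342 and 356 CPM in the DMSO libraries (log2 fold change -3.82 ± 0.09, adjusted p = 6.21e-09), while CTSL, cathepsin L, and TFEB, the regulator of lysosomal genes, rose with log2 fold changes of 1.74 ± 0.11 and 1.64 ± 0.11.

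The other large gains in CPM were of PABPC1, the poly(A)-binding protein (log2 fold change 0.96 ± 0.10, adjusted p = 2.66e-05), EPAS1, a hypoxia-inducible factor (log2 fold change 1.33 ± 0.13, adjusted p = 1.50e-05), and IGF2, a fetal growth factor. IGF2 had 11925 and 13753 CPM in the T3 libraries, against 10299.7 and 11017 CPM in the DMSO libraries (log2 fold change 0.27 ± 0.10, adjusted p = 0.0435), with an adjusted p of 0.215 without T3 replicate 2, 0.232 without DMSO replicate 1 and 0.106 without DMSO replicate 2. By fold, the 12 largest gains also held TPPP3, a tubulin-binding protein, GAST, gastrin, CLSTN2, a calsyntenin, ATP12A, a proton pump, and SERPINB12, an intracellular serpin, with log2 fold changes of 4.196 ± 0.16, 3.91 ± 0.24, 3.84 ± 0.13, 3.71 ± 0.15 and 3.67 ± 0.24, and UGT1A4 and UGT1A5. MTPN, encoding myotrophin, had 17.3 and 16.95 CPM with T3 and no count with DMSO, but the T4 libraries had 16.4 and 0 CPM, so replicates of 1 group differed as much as the groups. Serpins, looked up after their values were seen, split by clade. Of 9 tested SERPINA genes, mostly secreted, 8 fell and 1 rose, and of 10 tested SERPINB genes, mostly intracellular, 8 rose and 2 did not pass.

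Genes of cell division were lower. Of 30 mitosis genes 21 fell and 1 rose (median -0.50). TOP2A, the topoisomerase of dividing cells, had 35.4 and 36.8 CPM in the T3 libraries, against 68.1 and 54.2 CPM in the DMSO libraries (log2 fold change -0.76 ± 0.11, adjusted p = 0.000226). The exception was CCNB1, a mitotic cyclin, with 45.3 and 37.1 CPM in the T3 libraries, against 24.6 and 23.7 CPM in the DMSO libraries (log2 fold change 0.77 ± 0.10, adjusted p = 0.000165). Of 30 DNA replication genes 7 rose and 5 fell, a share of rises near that of all genes (24.0%), and CCNE1, the cyclin that starts S phase, had 181 and 144 CPM in the T3 libraries, against 42.9 and 39.8 CPM in the DMSO libraries (log2 fold change 1.98 ± 0.11, adjusted p = 4.59e-07). Of 31 nuclear-encoded oxidative phosphorylation genes 11 fell and the other 20 did not pass (median -0.14). Of 30 ribosomal protein genes 8 rose (26.7%), also near the share of all genes, and the other 22 did not pass (median 0.13).

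At the level of transcripts 3589 of 32289 tested (11.1%) were called, 1880 higher and 1709 lower, in 3301 genes. The spread between replicates was far larger than for genes, with a common biological coefficient of variation of 82.1%, against 7.48% for genes. Of the tested transcripts 9.892% with T3 and 10.0003% with DMSO had no count in 1 library and at least 20 in the other, which held for 0.117% of genes in each group. Of the called transcripts 3439 belonged to called genes, and 41 went against the direction of their gene. The number called was 1017 without T3 replicate 1, 1647 without T3 replicate 2, 702 without DMSO replicate 1 and 759 without DMSO replicate 2.

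A change of isoform was called where a transcript changed relative to its gene at an adjusted p of at most 0.05 in edgeR's diffSpliceDGE and its share of the gene differed by at least 20 percentage points without overlap. This held for 13 of 23121 transcripts (0.0562%), in 13 genes. The number was 9 without T3 replicate 1, 4 without T3 replicate 2, 17 without DMSO replicate 1 and 20 without DMSO replicate 2. The transcript NM_173216 of ST6GAL1, a sialyltransferase that caps glycans of secreted proteins, held, of the counts of its gene, 64.6% and 55.01% in the T3 libraries, against 0% in both DMSO libraries. NM_001254758 of ST3GAL4, another sialyltransferase, held 63.5% and 53.04% in the T3 libraries, against 0% in both DMSO libraries. Neither transcript had a count with DMSO, and with T3 each was the larger part of its gene. ST6GAL1 as a whole fell (log2 fold change -2.24) and ST3GAL4 rose (1.58).

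In ENG the transcript NM_001278138 held 26.6% and 39.1% in the T3 libraries, against 4.60% and 3.78% in the DMSO libraries. In MME, the membrane peptidase neprilysin, NM_007287 held 23.9% and 33.4% in the T3 libraries, against 0% in both DMSO libraries. In NEDD4L, a ubiquitin ligase of membrane channels, NM_001144966 held 50.4% and 44.5% in the T3 libraries, against 14.3% and 11.7% in the DMSO libraries, without a call for the gene (adjusted p = 0.968). The share was thus higher with T3 in all 3, as it was in ADGRG1, an adhesion receptor, and FDFT1, squalene synthase. In AFAP1L1, an actin-associated protein, NM_001323062 held 0% in both T3 libraries, against 52.3% and 26.7% in the DMSO libraries. TRIM45, a ubiquitin ligase, and CNOT6L, a deadenylase, likewise had a transcript that was at 0% in both T3 libraries. The CNOT6L transcript had 248.69 and 124.34 expected counts with DMSO and exactly the same values with T4. Its gene had 795 and 692 counts with DMSO and 636 and 669 with T4. The reason for the equal values was not tested, and the change in CNOT6L is uncertain. VGLL3, CBLB and CPN2 made up the 13. With any 1 of the 4 libraries left out, the adjusted p remained at or below 0.05 for MME (at most 0.0284) and VGLL3 (at most 0.0366) and not for the other 11. For ENG it was 0.0541 without T3 replicate 2 and below 0.05 otherwise. Without T3 replicate 1 it was 0.0888 for ST6GAL1, 0.108 for ST3GAL4, 0.279 for AFAP1L1, 0.352 for NEDD4L, 0.351 for TRIM45, 0.270 for CNOT6L, 0.279 for ADGRG1 and 0.608 for FDFT1.

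**Figure D5:**
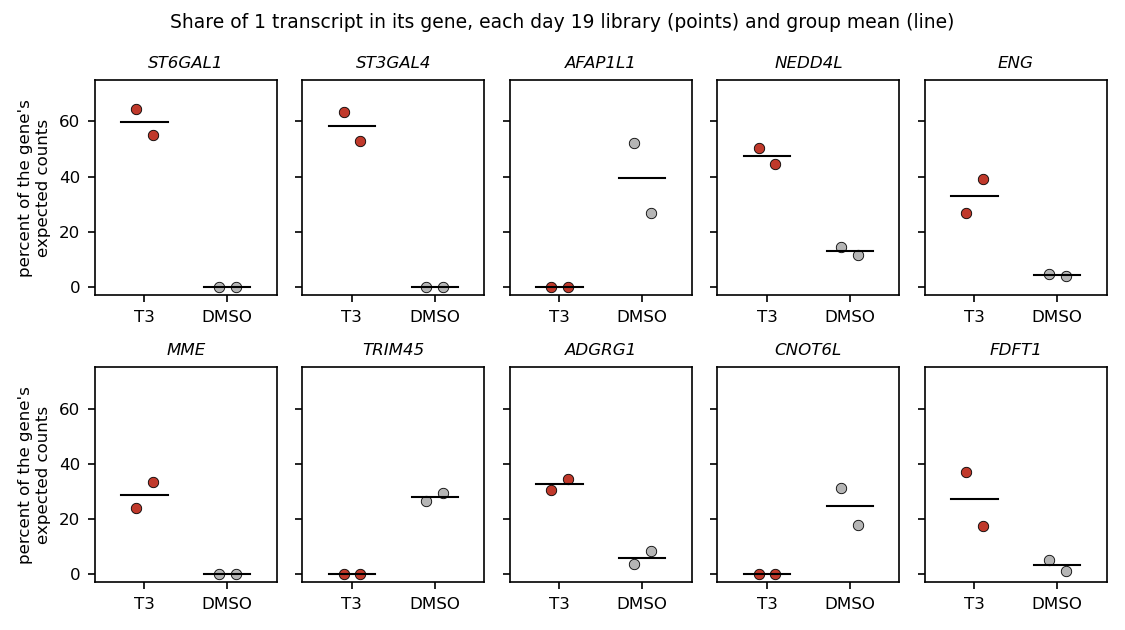
Share of 1 transcript in the expected counts of its gene, in percent, in the T3 libraries and the DMSO libraries at day 19 for the 10 genes with the largest change that passed the test, with a point for each library and a line for the mean of 2. The transcripts of ST6GAL1, ST3GAL4 and MME were at 0% with DMSO and those of AFAP1L1, TRIM45 and CNOT6L at 0% with T3. The DMSO counts of the CNOT6L transcript recur exactly with T4, so its change is uncertain.

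T3 was compared directly with T4 at the same dose and day. Of the 17084 genes 1478 (8.65%) differed, 807 higher with T3 (4.72%) and 671 lower (3.93%). The number was 518 without T3 replicate 1, 1753 without T3 replicate 2, 276 without T4 replicate 1 and 178 without T4 replicate 2. Of 28 ATF4 targets 15 were higher with T3 than with T4 and 1 was lower. Of 22 amnion and trophectoderm genes 9 were higher and 4 lower, and of 22 hypoxia genes 9 were higher and 1 lower. Of 23 apolipoprotein genes 10 were lower with T3 and 1 higher, and of 27 coagulation genes 9 were lower and 1 higher. Of 32 interferon stimulated genes 2 were higher with T3 and the other 30 did not pass. Against DMSO, the 22 hypoxia genes went both ways with T3: 10 fell and 6 rose (median log2 fold change -0.13).

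AFP had 387 and 581 CPM with T3 and 1506 and 1821 CPM with T4 (log2 difference -1.78 ± 0.17, adjusted p = 0.000629), both far below DMSO. DIO3 had 885 and 714 CPM with T3 and 527 and 562 CPM with T4 (log2 difference 0.55 ± 0.12, adjusted p = 0.0192). In both genes T3 lay farther from DMSO than T4. HNF4A, ALB, SHBG and COL1A1 were also lower with T3 than with T4, with log2 differences of -0.52 ± 0.12, -1.17 ± 0.28, -0.98 ± 0.20 and -0.75 ± 0.10. KLF9, CPT1A, THRA and PCK1 did not pass, with log2 differences of 0.24 ± 0.10, 0.03 ± 0.08, -0.02 ± 0.14 and -0.05 ± 0.12, which does not show that the hormones act alike on them.

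The T3 effect at day 19 was tested against the T3 effect at day 7 in a fit of all 12 libraries. The common biological coefficient of variation of genes was 5.42% in that fit, against 7.48% at day 19 alone. Its standard errors and p-values may therefore understate the spread at day 19. The day 19 effect differed in 6873 of 18101 genes (38.0%), lying above the day 7 effect in 3091 (17.1%) and below it in 3782 (20.9%). It lay below in 27 of 30 mitosis genes, 16 of 23 apolipoprotein genes and 17 of 26 urea cycle and amino acid genes. It lay above in 23 of 28 ATF4 targets, 17 of 22 endoplasmic reticulum stress genes and 13 of 32 interferon stimulated genes. HR was higher with T3 at day 7 (log2 fold change 1.36 ± 0.32, adjusted p = 0.00978), and its effects on the 2 days differed (-1.73 ± 0.35, adjusted p = 0.00126). CPT1A also rose at day 7 (log2 fold change 0.64 ± 0.12, adjusted p = 0.00281), and the difference between the days did not pass (0.06 ± 0.15, adjusted p = 0.796).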

How the data were processed

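Total RNA of H9-derived cells was sequenced in 12 libraries. The submitters' processing notes name HISAT, Bowtie2, RSEM and hg38, with no versions or roles. The deposited expected counts are RSEM's estimates of reads per RefSeq transcript, per the file headers. The deposited FPKM values, scaled by the authors to length and depth, served only as an alternative unit. The files list transcripts with an FPKM of at least 0.01. Of 23922 genes 23801 matched a RefSeq symbol by Entrez number, and the 121 without a match held 0.103% to 0.145% of the counts.

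Expected counts were summed per gene, rounded and fitted with edgeR 4.0.16 (quasi-likelihood, TMM, filterByExpr, R 4.3.3) on the 6 libraries of day 19, with no replicate block and 3 residual degrees of freedom. P-values were two-sided and adjusted by the Benjamini-Hochberg method across the whole table. Transcript shares used diffSpliceDGE on all tested transcripts of genes with several tested transcripts. Calls were then limited to genes with at least 20 counts in each T3 and DMSO library. The fits were run on simulated data with known changes. For transcript shares the simulated spread was set far below that of the data, where the coefficient of variation of transcripts was 82.1%. That run thus cannot show how reliable the isoform calls are. Totals per library set the counting error, and intervals and floors of 3 counts cover that error only. Libraries of a group differed beyond sampling noise (chi-square per gene 8.43 for T3, 6.94 for DMSO and 4.88 for T4). Named genes include the 12 largest and 12 smallest log2 fold changes among called genes of at least 10 CPM whose groups did not overlap. They also include the 8 largest gains and losses in CPM, a fixed set and the 5 smallest p of each described list. Others are marked as chosen after their values were seen. The comparison, the lists and the fixed set were chosen with earlier results of these data known. Some genes that meet these conditions are not reported here. Promoters were read with pandas 2.3.3 in Python 3.11.15. Alternatives with DESeq2 1.42.0 and limma 3.58.1 are given in the closing section.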

Additional observations from a re-analysis of the deposited data

Results flagged for a closer look

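The T3 effect at day 19 differed from that at day 7 in an interaction test of all 12 libraries for the genes given here, out of those fixed by name. Values below are the day 19 effect minus the day 7 effect on the log2 scale. Their standard errors come from the fit of both days, which may understate the spread at day 19. The difference was negative for the plasma protein genes AFP (-5.44 ± 0.20, adjusted p = 1.92e-10), ALB (-3.38 ± 0.42, adjusted p = 2.01e-05) and SHBG (-0.88 ± 0.31, adjusted p = 0.0369). It was negative for HNF4A (-1.43 ± 0.12, adjusted p = 5.24e-07), PCK1 (-2.48 ± 0.67, adjusted p = 0.00912) and the collagen gene COL1A1 (-2.24 ± 0.11, adjusted p = 2.48e-09).

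In the hormone system it was negative for HR (-1.73 ± 0.35, adjusted p = 0.00126), DIO1 (-1.03 ± 0.29, adjusted p = 0.0105), DIO2 (-1.24 ± 0.27, adjusted p = 0.00213) and the receptors THRA (-0.92 ± 0.16, adjusted p = 0.000325) and THRB (-0.90 ± 0.14, adjusted p = 0.000147). It was also negative for the transporter SLC16A10 (-2.05 ± 0.23, adjusted p = 8.55e-06), and positive for DIO3 (1.06 ± 0.17, adjusted p = 0.000189). Among pluripotency and fetal genes it was negative for POU5F1 (-1.59 ± 0.18, adjusted p = 7.77e-06) and NANOG (-3.05 ± 0.35, adjusted p = 9.10e-06) and positive for LIN28A (0.66 ± 0.08, adjusted p = 2.22e-05). NANOG rose with T3 at day 7 (log2 fold change 3.39 ± 0.17, adjusted p = 1.12e-08) and did not pass at day 19 (0.35 ± 0.35, adjusted p = 0.441).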

How the results depend on the processing

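For T3 against DMSO the number of genes called, 8255, ranged from 6709 with DESeq2 to 9467 in a fit of all 12 libraries, and from 6720 to 7535 with 1 library left out. Of 5163 results of 372 named genes under the alternatives 112 lost their call, 42 gained one and 0 changed direction; 33 genes lost a call at least once. The count of at least 2-fold was 1609 with limma on log2(FPKM + 1), whose folds are compressed for low genes, against 2859. On that scale the median log2 fold changes were also nearer 0 for the lists of complement (-0.57), bile acids (-0.78), NRF2 (0.32), mitosis (-0.29) and intestine (-1.47).

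Transcript results were the least stable. Called transcripts, 3589, numbered 1568 with the 4 libraries of the comparison alone, 1555 with a replicate block, and 702 to 1647 with 1 library left out. Changed shares, 13, numbered 100 with a filter of 20 counts, 8 with all 12 libraries, 3 with the block, 22 at 10 percentage points, and 4 to 20 with 1 library left out. T3 against T4, 1478 genes, ranged from 178 to 1753 with 1 library left out.

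The labels do not say whether the replicate numbers pair the samples. Deviations of same-numbered libraries correlated at 0.152 (DMSO and T3), -0.105 (DMSO and T4) and 0.024 (T3 and T4). With 2 libraries a group these values cannot settle whether samples were paired. With the replicate numbers as a block 8065 genes were called for T3 against DMSO, 1396 for T3 against T4 and 6825 for the difference between days. The cause of these differences was not tested. With 2 libraries a group, small changes and low genes are limited by the replicate spread and not by depth alone.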

Other observations

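Of 37 WNT genes 14 rose (37.8%) and 15 fell (40.5%), against 24.0% and 24.3% of all genes. WNT11, a ligand of noncanonical signalling, had 81.6 and 76.9 CPM in the T3 libraries, against 36.9 and 39.2 CPM in the DMSO libraries (log2 fold change 1.06 ± 0.09, adjusted p = 9.55e-06). The secreted antagonists SFRP5 and SFRP2 and the receptor LGR6 had log2 fold changes of -4.13 ± 0.20, -2.64 ± 0.09 and -1.48 ± 0.14. These antagonists thus fell and WNT11 rose. Shares nearer those of all genes were called in 20 BMP genes, of which 6 rose (30%) and 6 fell (30%), in 25 TGF-beta and activin genes, of which 6 rose (24%) and 8 fell (32%), and in 19 FGF genes, of which 5 rose (26.3%) and 6 fell (31.6%). NOG, a BMP antagonist, had 1.18 and 1.90 CPM in the T3 libraries, against 6.56 and 7.09 CPM in the DMSO libraries (log2 fold change -2.14 ± 0.23, adjusted p = 3.39e-05), while the ligand BMP7 had a log2 fold change of 1.38 ± 0.13.

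Of 20 genes of chromatin and DNA methylation 14 rose and 2 fell (median 0.43). EZH2, a histone methyltransferase of the Polycomb group, had 30.04 and 23.6 CPM in the T3 libraries, against 6.34 and 7.14 CPM in the DMSO libraries (log2 fold change 1.99 ± 0.15, adjusted p = 2.41e-06). TET2, which oxidizes methylated cytosine, JARID2, a Polycomb partner, and DNMT1, the maintenance methyltransferase, had log2 fold changes of 1.79 ± 0.14, 1.12 ± 0.10 and 0.67 ± 0.10. In the pluripotency list 6 of 15 genes rose and 1 fell. LIN28A, an inhibitor of let-7 maturation, had 44.9 and 44.3 CPM in the T3 libraries, against 26.6 and 25.1 CPM in the DMSO libraries (log2 fold change 0.79 ± 0.08, adjusted p = 2.82e-05), while POU5F1 and NANOG did not pass (0.16 ± 0.22 and 0.35 ± 0.35).

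Of 15 genes of the IGF axis 6 rose (40%) and 4 fell (26.7%), against 24.0% and 24.3% of all genes. IGFBP3, a carrier of IGF in plasma, had 1444 and 1444 CPM in the T3 libraries, against 831 and 792 CPM in the DMSO libraries (log2 fold change 0.83 ± 0.08, adjusted p = 1.07e-05). GHR, the growth hormone receptor, had 5.87 and 5.26 CPM in the T3 libraries, against 17.2 and 16.5 CPM in the DMSO libraries (log2 fold change -1.60 ± 0.14, adjusted p = 9.49e-06). Of 11 metallothionein and zinc genes 5 fell and 1 rose, and the zinc importers SLC39A5 and SLC39A4 had log2 fold changes of -3.30 ± 0.14 and -2.64 ± 0.18.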
